A study of Mus musculus with 64 samples.

Results

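Hearts of mice that had trained on a treadmill were compared with and without loss of Bmal1 in muscle. The comparison rests on 10 RNA-seq libraries of whole heart, 5 labelled as trained with the muscle-specific Bmal1 knockout and 5 as trained controls, out of 20 heart libraries and 64 libraries in the series. Members were taken by these labels and rows of the deposited table were summed per gene symbol. All mice carried the genotype written Cre+:iMSBmal1 fl/fl, a Cre transgene with floxed Bmal1 alleles, and differed in treatment: vehicle for the controls, and iMSBMal1KO for the knockout groups. The agent that induced the knockout is not named in the labels, so its own effect and that of the knockout cannot be told apart, and neither is the promoter that drives Cre. Trained mice ran daily for 6 weeks, and tissue was taken 48 h after the last bout. The other 10 heart libraries came from sedentary mice of the same genotype, 5 given vehicle and 5 with the knockout, and serve here to set the trained comparison beside the same contrast without training. Age, sex and time of day of collection are not given in the sources used here.

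Bmal1, listed under its symbol Arntl, is a transcription factor that pairs with Clock or Npas2 and drives the daily expression of the Per and Cry repressors and of Nr1d1, Dbp and other output genes. In striated muscle the clock is known for setting the daily course of glucose and fat use. The heart itself is built of cardiomyocytes that burn mainly fatty acids, a dense capillary bed of endothelial cells that lie on a basement membrane, and fibroblasts that lay down the fibrillar collagens between them.

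Levels are given as CPM-scale signal, the deposited values divided by 1 factor for all heart libraries so that the mean library is on the scale of counts per megaread. Depth estimated from the deposited values was 14.1 to 21 megareads per heart library. Differences are knockout minus vehicle in log2 of the level plus 1, with the standard error (SE) of limma's fit to all 20 heart libraries, and a gene is called where its Benjamini-Hochberg adjusted p is under 0.05. This scale understates the change of genes with low levels. The labels number the libraries of a group but do not state that each is 1 animal, and the p-values reflect only the spread between libraries, which may be technical. The summed level of 10 cardiomyocyte markers was 45668 to 51481 in trained vehicle and 45637 to 50449 in trained knockout hearts, and the share of signal from mitochondrially encoded genes was 28.8 to 32.4% and 29 to 31.6%.

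Some libraries stood apart before any comparison. Ucp1, the uncoupling protein that defines brown fat, had a level of 31.2 in trained vehicle replicate 1 and at most 0.389 in the other 4 vehicle hearts. In trained knockout hearts it was 11, 11.4, 0.0474, 8.23 and 48.8 in replicates 1 to 5. Adipoq and Plin1, made by fat cells, followed the same libraries. Trained vehicle replicate 5 carried hepatocyte transcripts, with a marker sum without Trf of 168, or 11.4 times the median heart library. Trained knockout replicate 5 also had a B lymphocyte marker sum of 101 against 11.5 to 16.8 in the rest of its group, and a lung epithelium sum of 27.7, nearly all Scgb1a1, against at most 0.332. The atrial marker sum ranged from 617 to 2712 in trained vehicle hearts and from 1544 to 3155 in trained knockout hearts, so the libraries held different amounts of atrial transcripts. The part of these transcripts in the results below was not tested beyond the fits with and without them.

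**Figure D1:**
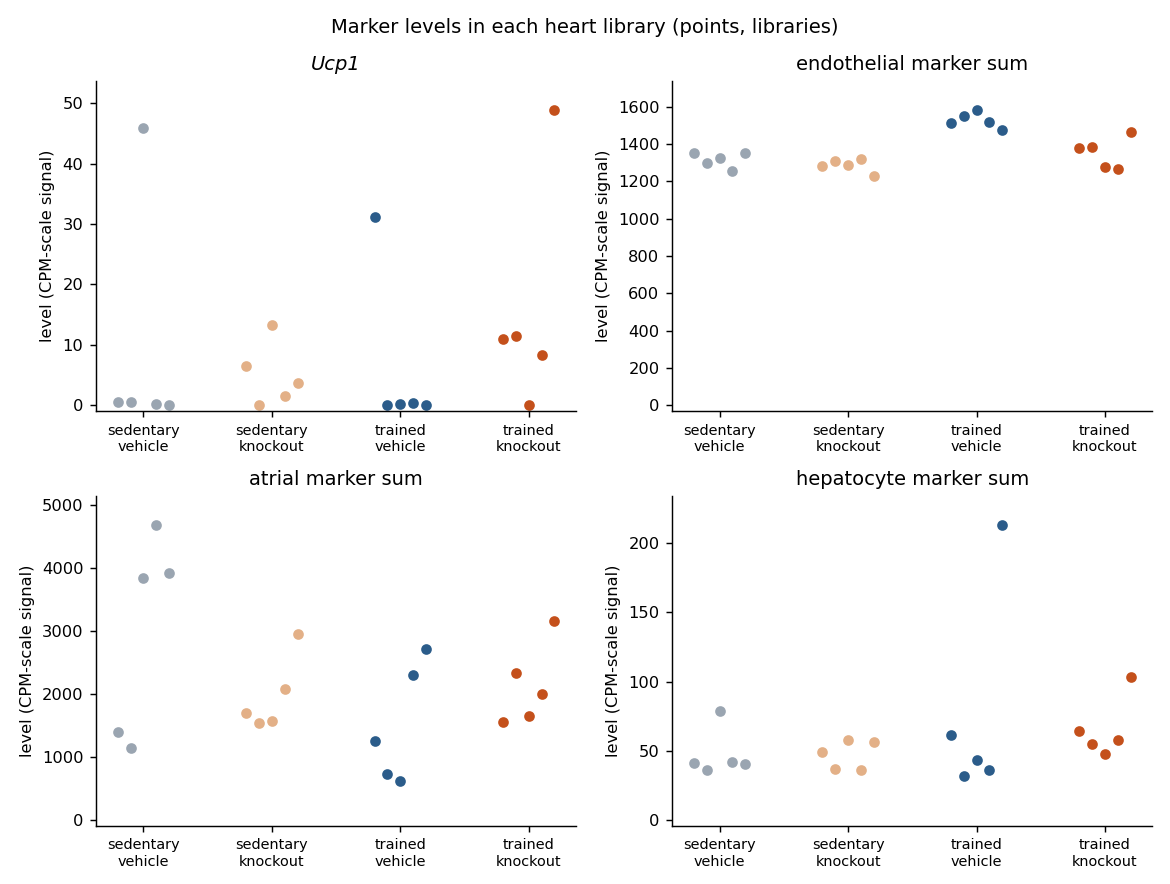
Levels of Ucp1 and the summed levels of endothelial, atrial and hepatocyte markers in the 20 heart libraries (CPM-scale signal, 1 point per library, by group). In the trained hearts the endothelial sums do not overlap, at 1476 to 1580 with vehicle and 1265 to 1467 with the knockout, while Ucp1 and the hepatocyte sum are high in single libraries. The endothelial sum is led by Fabp4, which is also on the adipocyte marker list. Taken singly, 1 of the 12 endothelial markers had groups that did not overlap.

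In trained hearts the knockout was accompanied by lower transcripts of the collagen genes Col4a1, Col4a2, Col3a1 and Col15a1, of the collagen-binding protein Sparc, of the glycolytic enzyme Pgk1 and of single subunits of the respiratory chain, and by higher transcripts of the complement component C7 and of the extracellular proteins Spock2 and Sned1. limma called 70 of 13455 tested genes, or 0.520%, of which 48 were lower (0.357%) and 22 higher (0.164%) in the knockout. The changes were small: the called falls had a median of -0.29 on the log2 scale and a range of sizes from 0.18 to 1.45, and the called rises had a median of 0.34 and sizes from 0.23 to 1.08. The median over all genes was 0.00. In 39 of the 48 genes called lower and 14 of the 22 called higher, the 2 groups of 5 hearts did not overlap. Over all tested genes the groups did not overlap in 1.80% with the knockout lower and in 0.870% with the knockout higher. Calls and overlap were read from the same libraries, so a larger share among called genes follows from the call and is no separate evidence. Of the 70 called genes, 12 carry predicted, clone or pseudogene names and are not named here.

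The number of calls depended on the fit. Each library scaled by its own sum left 12 calls, all of them lower, so the split of 22 higher and 48 lower did not hold under that scaling. Fitted without the sedentary hearts, limma called 0 genes, with 1860 at an unadjusted p under 0.05 against 2030 in the fit to all 20 hearts. Leaving out 1 heart gave 7, 4, 20, 12 and 164 calls without vehicle replicates 1 to 5, and 8, 10, 47, 4 and 270 without knockout replicates 1 to 5. Sparc, Pgk1 and Cox7a2 were called in all 10 of these fits, and 12 of the 70 genes in at least 5 of them. Without the 4 heart libraries richest in Ucp1 or hepatocyte transcripts, 88 genes were called, 36 of them among the 70. Left out were sedentary vehicle replicate 3, trained vehicle replicates 1 and 5 and trained knockout replicate 5. Trained knockout replicates 1, 2 and 4 stayed in, with Ucp1 at 11, 11.4 and 8.23. The trained vehicle hearts that stayed in had at most 0.389, so this fit is not free of other-tissue transcripts.

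**Figure D2:**
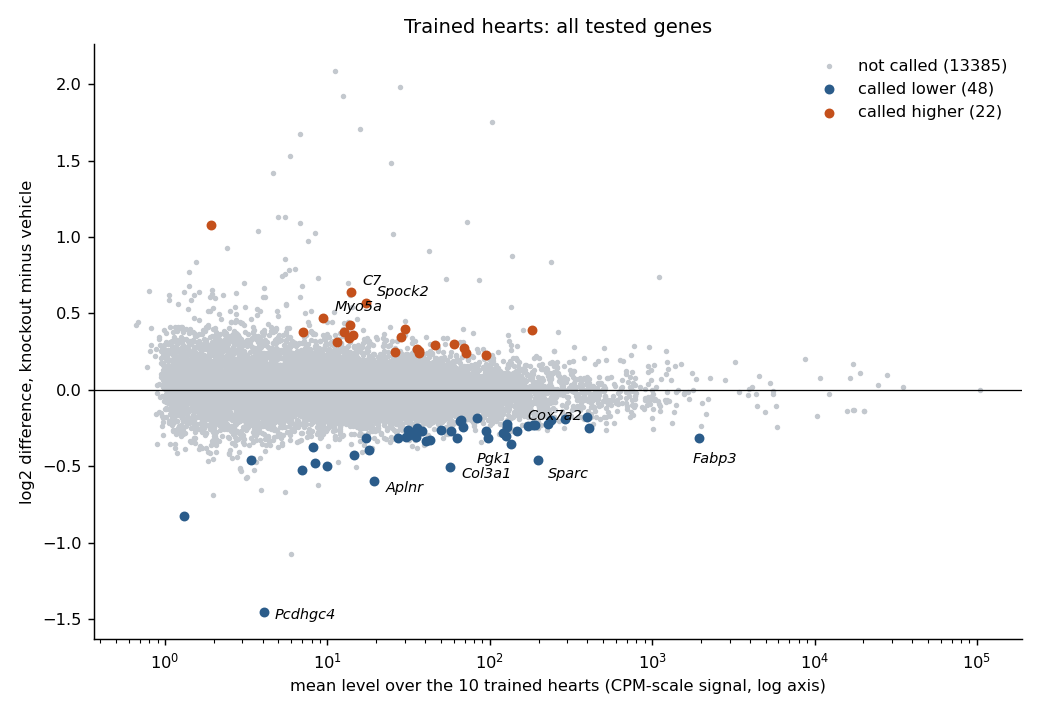
Log2 difference between trained knockout and trained vehicle hearts against the mean level over the 10 hearts (CPM-scale signal, log axis) for each tested gene. The 48 genes called lower and the 22 called higher are coloured and lie among uncalled genes with differences of the same size.

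Col4a1 and Col4a2 encode the paired chains of type IV collagen, the sheet-forming collagen of basement membranes. They lie head to head on chromosome 8, and the RefSeq promoter windows (GRCm38.p6, 250 bases before to 50 after the transcript start) share 78 bases, with starts 21 bases apart. Both windows are printed 5′ to 3′ on the strand of their gene, Col4a1 at chr8:11312777-11313076 on the minus strand and Col4a2 at chr8:11312555-11312854 on the plus strand, since these genes fell together. Capitals mark the shared bases, which are the reverse complement of each other.
Col4a1: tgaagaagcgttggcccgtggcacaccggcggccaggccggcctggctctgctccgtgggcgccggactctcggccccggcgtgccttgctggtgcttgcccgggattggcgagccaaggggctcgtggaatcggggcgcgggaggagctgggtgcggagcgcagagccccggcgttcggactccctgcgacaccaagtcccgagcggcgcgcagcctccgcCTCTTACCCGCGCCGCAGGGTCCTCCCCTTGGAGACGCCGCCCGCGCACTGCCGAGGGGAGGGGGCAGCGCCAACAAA
Col4a2: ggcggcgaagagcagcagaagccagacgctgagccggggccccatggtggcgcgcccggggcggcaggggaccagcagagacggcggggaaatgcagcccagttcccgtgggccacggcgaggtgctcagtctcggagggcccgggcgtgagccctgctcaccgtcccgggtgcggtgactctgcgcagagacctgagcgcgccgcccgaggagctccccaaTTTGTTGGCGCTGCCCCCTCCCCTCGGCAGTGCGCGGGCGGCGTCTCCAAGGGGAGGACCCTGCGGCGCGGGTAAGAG
Neither window holds the clock's E-box CACGTG on either strand, which is present in the windows of 8.09% of 27025 genes. Among the 46 called genes with a window it is found in 1, Fbxl22 (2.17%). No match says only that these letters are absent from these 300 bases.

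The level of Col4a1 was 142, 151, 152, 185 and 133 in trained vehicle hearts and 112, 113, 128, 112 and 128 in trained knockout hearts. Col4a2 was at 124, 143, 145, 162 and 124 against 113, 107, 119, 109 and 114. For both genes all 5 knockout hearts lay below all 5 vehicle hearts, and vehicle replicate 4 was the highest library. Col4a1 fell by 0.36 on the log2 scale (SE 0.06, limma adjusted p 0.0201) and Col4a2 by 0.30 (SE 0.06, adjusted p 0.0364). The calls were kept in 6 and 4 of the 10 fits that leave out a heart, and with the length index described below as a covariate their differences were -0.32 and -0.30, with adjusted p of 0.296 and 0.297. Of the 17 basement membrane genes tested these were the 2 called, and the list as a whole did not share the direction: 6 had negative and 11 positive differences, with a median of 0.04. The laminin chain gene Lama5, which encodes another basement membrane protein, had the highest value of the list at 0.36, uncalled, and Lama4 stood at 0.00.

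Sparc, a secreted glycoprotein that binds collagen and is needed for its deposition, was at 220, 220, 232, 268 and 199 in vehicle hearts and at 151, 160, 195, 150 and 172 in knockout hearts. Every knockout heart was below every vehicle heart, with vehicle replicate 5 and knockout replicate 3 only slightly apart. Sparc fell by 0.46 (SE 0.07, limma adjusted p 0.00919), from 228 ± 25.3 to 165 ± 18.7 (SD, n = 5 each). It was called in 10 of 10 fits that leave out a heart. Without the 4 libraries richest in Ucp1 or hepatocyte transcripts its limma adjusted p was 0.00519. The call was lost with the 2 groups fitted alone and with the length index described below as a covariate, at a limma adjusted p of up to 0.296. It was the only called gene of the 23 matricellular and elastic fibre genes tested, whose median was -0.03.

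Col3a1, the type III fibrillar collagen of soft tissue, was at 67.7, 52.3, 78.8, 81.7 and 57.6 in vehicle and 44.5, 41.4, 54.1, 42.5 and 51.7 in knockout hearts. The groups overlapped, since knockout replicate 3 exceeded vehicle replicate 2. Col3a1 fell by 0.51 (SE 0.12, limma adjusted p 0.0452), a call kept in 3 of 10 fits that leave out a heart. Col15a1, a collagen that links the basement membrane to the fibrils around it, fell by 0.27 (SE 0.06, adjusted p 0.0379). Its groups did not overlap, at 35.2 to 44.9 with vehicle and 30 to 34.4 with the knockout. The call of Col15a1 was likewise kept in 3 of 10 fits that leave out a heart. All 13 tested genes of the list of fibrillar and fibril-associated collagens, in which Col15a1 is counted, had negative differences, from -0.51 to -0.02. Their median was -0.18, and the 2 called were Col3a1 and Col15a1. Col1a1, the major type I chain, had a difference of -0.37, and the type VI chains Col6a3, Col6a2 and Col6a1, which form beaded filaments, had -0.28, -0.26 and -0.17, none of these called. In sedentary hearts the same 13 genes also had negative differences in 13 of 13 and the same median of -0.18, with none called. Genes that process and cross-link collagen had 15 negative differences of 20 and a median of -0.08, and proteoglycans and matrix proteases 8 of 18 and 0.01, none called in either list. The summed level of 10 fibroblast markers, of which Gsn is the most abundant, overlapped between the groups. It was 1396 to 1681 in vehicle and 1492 to 1744 in knockout hearts. Taken singly, 6 of these markers had negative and 4 positive differences, with a median of -0.10 and none called.

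Several called genes are known from endothelial cells. Aplnr, the receptor for the peptide apelin, was at 21.3, 21.8, 25, 29.3 and 21.1 in vehicle and 13.7, 13.9, 18.7, 13 and 17.5 in knockout hearts. No knockout heart reached the lowest vehicle heart, and the fall was 0.60 on the log2 scale (SE 0.13, limma adjusted p 0.0379), kept in 3 of 10 fits that leave out a heart. Adora2a, the adenosine receptor that relaxes coronary vessels, fell by 0.52 (SE 0.10, adjusted p 0.0305), from 8.41 ± 0.827 to 5.53 ± 0.436 (SD, n = 5). Rbp7, a cellular retinol-binding protein, fell by 0.48, and Gimap6, a GTPase of the immunity-associated family, by 0.32, with adjusted p of 0.0447 and 0.0305. In these 3 genes the groups did not overlap. Ets1, a transcription factor of endothelial and lymphoid cells, fell by 0.34 (adjusted p 0.0452) with overlapping groups. The calls of Adora2a, Rbp7, Gimap6 and Ets1 were kept in 5, 2, 4 and 3 of 10 fits that leave out a heart. Those of Adora2a and Ets1 were lost without the 4 libraries richest in Ucp1 or hepatocyte transcripts, and those of Rbp7 and Ets1 with Ucp1 as a covariate.

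Aplnr was the 1 called gene among 32 genes of angiogenic signalling, of which 24 had negative differences and the median was -0.05. The growth factor gene Vegfa stood at 0.10, its receptor gene Kdr at -0.15, and Apln, which encodes the ligand of Aplnr, at -0.13, all uncalled. Of 12 endothelial markers, none was called and all 12 had negative differences, from -0.26 for the surface sialomucin Emcn to -0.05 for Pecam1, with a median of -0.18. Taken singly, 1 of the 12 had groups that did not overlap, against 1.80% of all tested genes with the knockout lower. The summed level of these markers, of which the fatty acid carrier Fabp4 is the most abundant, was 1515, 1552, 1580, 1516 and 1476 in vehicle hearts and 1381, 1385, 1276, 1265 and 1467 in knockout hearts. The sums of sedentary hearts were 1258 to 1352 with vehicle and 1230 to 1319 with the knockout, so the trained vehicle hearts were the highest of the 4 groups. In whole tissue, fewer endothelial cells and less RNA per cell cannot be told apart. The markers of endocardium and large vessels did not share the direction, with 5 of 6 positive and a median of 0.16.

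**Figure D3:**
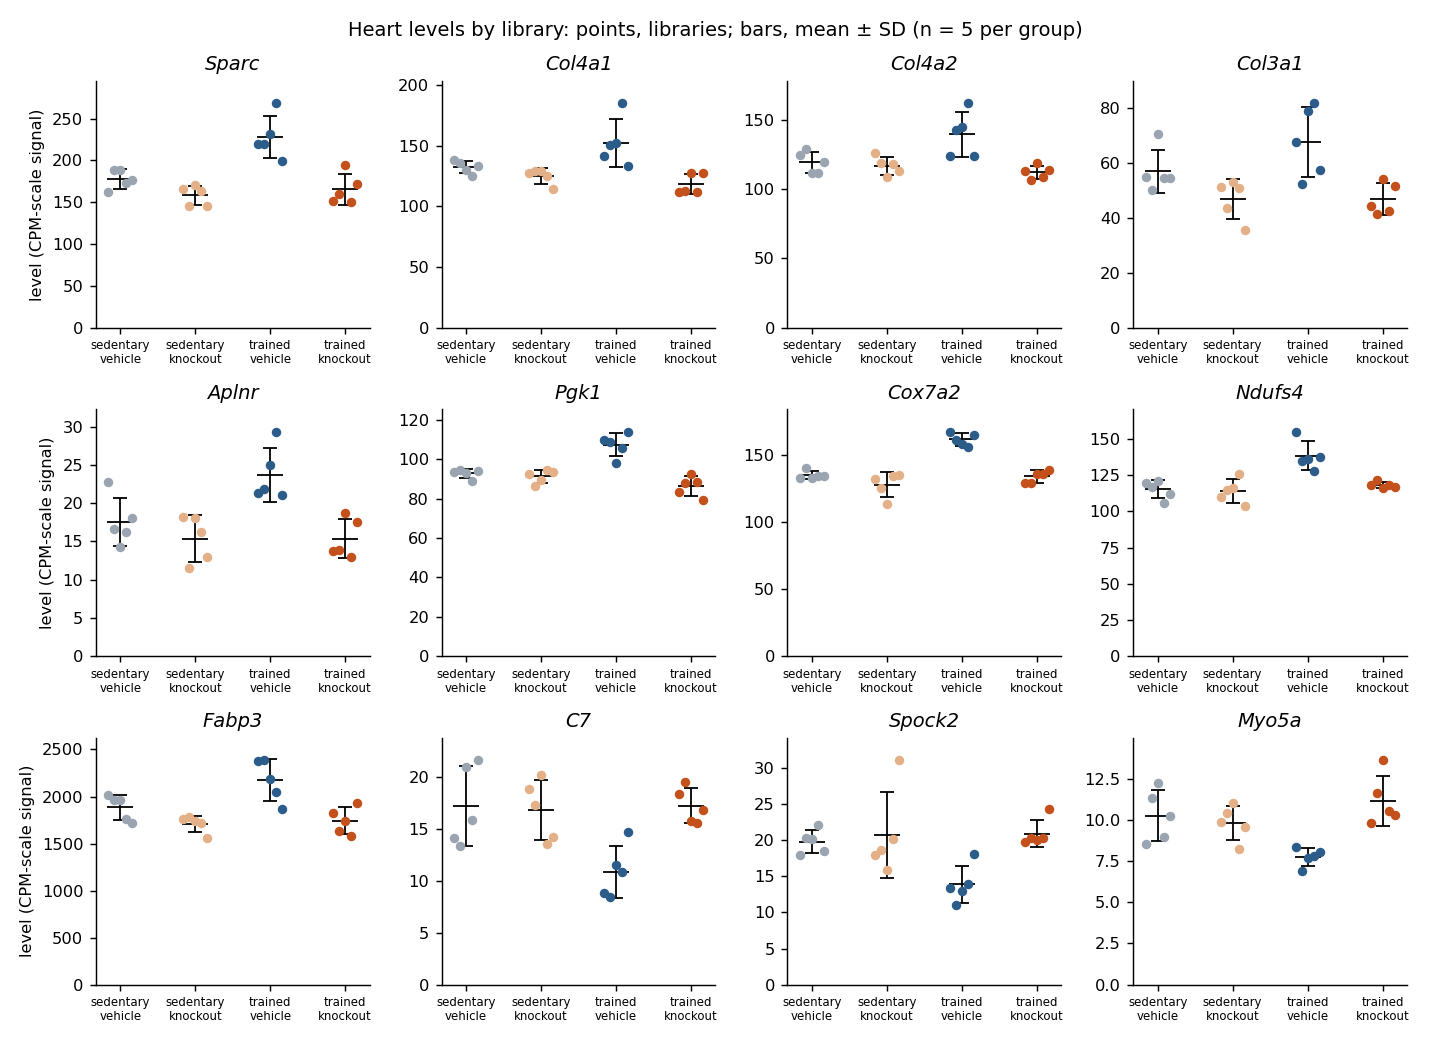
Levels of 12 genes in each heart library (CPM-scale signal). Points are libraries and bars are the mean and SD of 5 libraries per group. For 9 of the genes, from Sparc to Fabp3, the trained vehicle hearts have the highest mean of the 4 groups, and for C7, Spock2 and Myo5a the lowest.

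Pgk1 encodes phosphoglycerate kinase, an enzyme of glycolysis that yields ATP, and had the smallest adjusted p of the comparison. Its level was 110, 109, 98.3, 106 and 114 in vehicle hearts and 83.7, 88.2, 92.6, 88.5 and 79.4 in knockout hearts, so the groups did not overlap. Pgk1 fell by 0.31 (SE 0.05, limma adjusted p 0.00552), from 108 ± 6.10 to 86.5 ± 5.05 (SD, n = 5 each), and was called in 10 of 10 fits that leave out a heart. With the length index as a covariate its difference was -0.33 and its adjusted p 0.0769. Reads of Pgk1 can be shared with its processed copies. The RefSeq window of Pgk1 lies at chrX:106186850-106187149 on the plus strand (GRCm38.p6) and is printed because this gene changed most clearly. Capitals mark the letters ACGTG on either strand, the core bound by hypoxia-inducible factors and found within the E-box.
Pgk1: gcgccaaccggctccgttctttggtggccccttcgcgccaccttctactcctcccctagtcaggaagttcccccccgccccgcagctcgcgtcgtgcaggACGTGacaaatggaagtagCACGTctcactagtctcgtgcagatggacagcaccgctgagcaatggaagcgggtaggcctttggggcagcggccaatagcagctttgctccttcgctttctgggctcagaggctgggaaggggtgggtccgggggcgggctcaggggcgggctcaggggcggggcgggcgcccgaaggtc
The letters ACGTG occur at 2 places in this window and in the windows of 21.8% of all genes and 17.4% of the 46 called genes with a window. A match is a description of the sequence and does not show binding.

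No other of the 27 tested genes of glycolysis and lactate handling was called. Their median was -0.04, with 21 negative differences. Pgam2, the muscle phosphoglycerate mutase that acts just after Pgk1, had -0.19, Gapdh, which acts just before it, -0.17, and Ldha, the lactate dehydrogenase chain of glycolytic muscle, -0.12. Pfkfb2, whose enzyme in heart makes the activator of phosphofructokinase, stood at the other end with 0.31. Akr1b3, the aldose reductase that diverts glucose to sorbitol, is on no list and fell by 0.24 (SE 0.05, limma adjusted p 0.0305), with 68.7 to 79.1 in vehicle and 58.6 to 68.5 in knockout hearts.

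Genes of the mitochondrial respiratory chain encoded in the nucleus leaned lower, with single members called. Cox7a2, a subunit of cytochrome c oxidase, was at 167, 161, 158, 156 and 165 in vehicle and 129, 129, 136, 136 and 139 in knockout hearts. All knockout hearts were below all vehicle hearts by a wide margin against the spread within groups. It fell by 0.27 (SE 0.04, limma adjusted p 0.0111). Cox7a2 was called in 10 of 10 fits that leave out a heart, but not with each library divided by its sum. It was the 1 called gene of 39 genes of complexes II to V, of which 36 had negative differences, with a median of -0.12.

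Ndufs4, an accessory subunit of complex I, was at 155, 135, 136, 128 and 138 in vehicle and 118, 122, 116, 118 and 117 in knockout hearts. Ndufs6 was at 218, 212, 197, 196 and 207 against 176, 171, 179, 171 and 178. For both the groups did not overlap, and the knockout hearts varied less than the vehicle hearts. Ndufs4 fell by 0.23 (SE 0.05, limma adjusted p 0.0465), Ndufs6 by 0.23 (adjusted p 0.0379) and Ndufb2, another accessory subunit, by 0.24 (adjusted p 0.0379). These calls were kept in 2, 3 and 2 of 10 fits that leave out a heart. Without the 4 libraries richest in Ucp1 or hepatocyte transcripts their limma adjusted p was 0.154, 0.105 and 0.0978. Of 36 complex I genes, 35 had negative differences with a median of -0.13. The groups did not overlap in 9 of the 36, with the knockout lower, and likewise in 9 of the 39 genes of complexes II to V. Over all tested genes this share was 1.80%. In sedentary hearts 21 of the 36 complex I genes were negative and the median was -0.01. Mrps17, of the small subunit of the mitochondrial ribosome, fell by 0.25 (adjusted p 0.0305), the 1 call among 46 genes of the mitochondrial ribosome and of respiratory assembly, whose median was -0.11. The 13 respiratory genes encoded by the mitochondrion itself had a median of 0.03 and no call, from -0.14 for mt-Co2 and mt-Co3 to 0.28 for mt-Atp8.

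These differences moved with transcript length. The 13174 tested genes with a length had a median longest transcript of 3338 bases, against 2270 for 47 genes called lower and 5311 for the 22 called higher. Across genes, which are not independent replicates, the Spearman correlation of the difference with length was 0.33 in trained and 0.07 in sedentary hearts. The median difference ran from -0.09 in the shortest 10% of genes to 0.07 in the longest 10%. A length index per library, the median log2 deviation over the longest 20% of genes minus that over the shortest 20%, was -0.26, -0.19, -0.13, -0.10 and -0.05 in trained vehicle hearts and 0.01, -0.02, 0.00, 0.04 and -0.16 in trained knockout hearts. Genes of complex I are short, with a median of 1026 bases, and with the index as a covariate 18 of 36 were negative with a median of 0.00. For Cox7a2, centring within length bins gave -0.17 and an adjusted p of 0.119, while Sparc, at -0.43, Col4a1, at -0.39, and Pgk1, at -0.27, stayed called. With the index as a covariate limma called 0 genes, with 1192 at an unadjusted p under 0.05. What set the index apart between the groups was not tested.

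**Figure D4:**
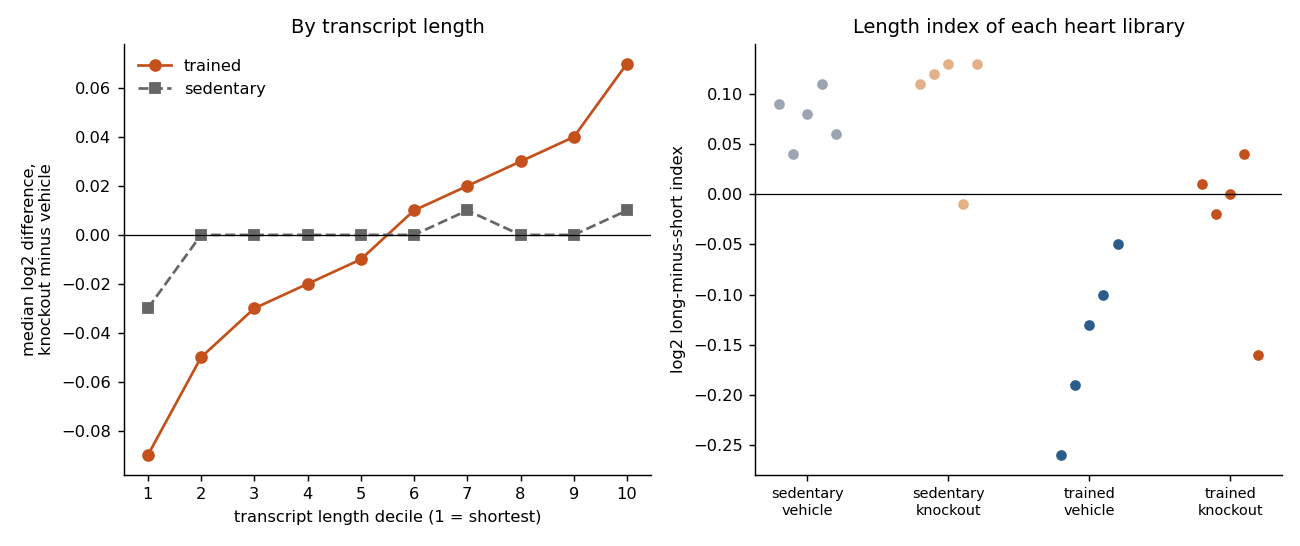
Left, median log2 difference (knockout minus vehicle) in 10 equal bins of genes by transcript length, for trained and sedentary hearts. Right, the log2 long-minus-short index of each heart library, where 4 of the 5 trained knockout hearts lie above all 5 trained vehicle hearts.

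Among genes of fatty acid use, Fabp3, the fatty acid carrier of the cardiomyocyte cytosol, was at 2380, 2384, 2189, 2046 and 1863 in vehicle and 1826, 1629, 1744, 1579 and 1933 in knockout hearts. The groups overlapped in 1 heart of each, vehicle replicate 5 and knockout replicate 5, both of which carried transcripts of other tissues. Fabp3 fell by 0.32 (SE 0.07, limma adjusted p 0.0379), kept in 2 of 10 fits that leave out a heart, and was the 1 call of 30 genes of fatty acid oxidation, which had a median of -0.08. Its longest transcript has 823 bases, and its difference was -0.22 (adjusted p 0.107) when centred within length bins, -0.18 (adjusted p 0.46) with the length index and -0.25 (adjusted p 0.0592) with the atrial marker sum as a covariate. Itgb1bp2, which encodes the muscle chaperone melusin that binds the integrin beta 1 tail, was at 108, 113, 94.8, 102 and 102 against 92.8, 85.3, 83.7, 84.1 and 84.1. It fell by 0.27 (SE 0.05, adjusted p 0.0184) without overlap of the groups, and was called in 7 of 10 fits that leave out a heart.

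Further large falls came from genes of mixed function. Pcdhgc4, a cell adhesion protein of the gamma protocadherin cluster, had the largest fall of the named genes. Its level was 8.01, 9.52, 6.06, 1.85 and 7.29 in vehicle and 1.24, 1.23, 3.04, 1.75 and 0.841 in knockout hearts, so that vehicle replicate 4 lay within the knockout range. The fall of 1.45 (SE 0.29, limma adjusted p 0.0305) is uncertain, since the genes of this cluster share exons, and it was kept in 4 of 10 fits that leave out a heart. Ntan1, an amidase of the N-degron pathway, fell by 0.43, Haus1, a subunit of the augmin complex of microtubules, by 0.37, and the zinc finger gene Zfp954 by 0.46, each without overlap and with adjusted p from 0.0319 to 0.0452. Rps10, a ribosomal protein gene with many copies in the genome, fell by 0.39 (adjusted p 0.0379). None of the 40 tested genes on the ribosome list, which leaves out Rps10, was called, with 38 negative differences and a median of -0.14, and 19 of 40 negative with the length index as a covariate.

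Of the genes called higher, C7, a component of the complement membrane attack complex, had the largest rise of the named genes. It was at 8.82, 8.42, 11.5, 10.8 and 14.7 in vehicle and 18.4, 19.5, 15.8, 15.6 and 16.8 in knockout hearts, without overlap. C7 rose by 0.64 (SE 0.14, limma adjusted p 0.0379), from 10.9 ± 2.53 to 17.2 ± 1.72 (SD, n = 5 each), and the call was kept in 3 of 10 fits that leave out a heart. With the atrial marker sum as a covariate the difference was 0.54 (adjusted p 0.0592), with Ucp1 0.60 (adjusted p 0.0522), and with the length index 0.42 (adjusted p 0.439). It was the 1 call of 20 complement genes, 16 of them with positive differences and a median of 0.09. The central component C3 stood at 0.39 and factor B, Cfb, at 0.35, both uncalled. Cfd, which fat cells make in quantity, had the highest value of the list at 1.70 (adjusted p 0.331) and was uncalled. In each trained group it was highest in the library with the most Ucp1, at 30.2 in vehicle replicate 1 and 73.1 in knockout replicate 5. Macrophage markers also leaned higher, 12 of 13 with a median of 0.10 and no call, and their summed level overlapped at 278 to 331 in vehicle and 302 to 345 in knockout hearts.

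Spock2, the matrix proteoglycan testican-2, was at 13.4, 11.1, 13, 13.9 and 18.1 in vehicle and 19.8, 20.3, 20, 20.3 and 24.3 in knockout hearts, and its groups did not overlap. It rose by 0.57 (SE 0.12, limma adjusted p 0.0379). Sned1, another extracellular matrix protein, rose by 0.43 (SE 0.10, adjusted p 0.0471) with overlapping groups, at 9.12 to 15.7 against 13.6 to 17.5. Myo5a, a myosin that carries vesicles along actin, rose by 0.47 (SE 0.10, adjusted p 0.0379), from 6.90 to 8.36 in vehicle to 9.80 to 13.6 in knockout hearts. Spock2, Sned1 and Myo5a were each called in 2 of 10 fits that leave out a heart, and centring within length bins ended each call, with differences of 0.54 for Spock2 (adjusted p 0.0593), 0.34 for Sned1 (adjusted p 0.132) and 0.39 for Myo5a (adjusted p 0.0889). Abat, the transaminase that degrades GABA, rose by 0.40 and the transporter gene Abca9 by 0.36. Dmxl2, a regulator of the vesicular proton pump, rose by 0.34, and Pstpip2, which binds membranes in myeloid cells, by 0.34. Their limma adjusted p was 0.0379 to 0.0466, and the groups overlapped for Abat. These calls were kept in 3, 3, 2 and 1 of 10 fits that leave out a heart, in the order named. Rsbn1 rose by 0.31, with an adjusted p of 0.0497, close to the threshold. Of the 22 genes called higher 15 had a transcript over 4500 bases, and none under 1500.

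The clock itself showed no called change in the trained hearts. Arntl was under the limit for testing, at 0.522, 0.545, 0.425, 1.33 and 0.405 in vehicle and 1.11, 0.878, 0.854, 0.592 and 1.05 in knockout hearts. The groups overlapped, the knockout hearts were not lower, and the mean was 0.646 ± 0.389 with vehicle and 0.896 ± 0.201 with the knockout (SD, n = 5 each). Reads over the whole gene do not show whether the floxed part was removed in heart. Of 22 clock genes tested, 7 had negative and 15 positive differences, with a median of 0.04, and none was called. Dbp, an output gene bound by Bmal1, was at 165, 147, 156, 153 and 164 against 132, 127, 129, 119 and 152. All but knockout replicate 5 lay below the lowest vehicle heart, and the difference was -0.25 (SE 0.08, adjusted p 0.11). In sedentary hearts the Dbp difference was -0.21, also uncalled. Ciart, also on the clock list, had -0.19 in trained and -0.29 in sedentary hearts, both uncalled. The clock list as a whole had 13 negative and 9 positive differences in sedentary hearts. Nr1d1, the repressor of Bmal1 transcription, had -0.24 (adjusted p 0.132), and Nfil3, a repressor at the sites that Dbp binds, had 0.38 (adjusted p 0.112). The repressor genes Per1, Per2, Cry1 and Cry2 had 0.05, 0.17, 0.05 and 0.03, with adjusted p from 0.293 to 0.885. Tissue taken at a single time cannot show a daily rhythm.

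No gene was called on the remaining lists, whose medians lay within 0.12 of 0 in trained hearts. These cover the sarcomere and Z-disc (28 genes tested), calcium handling (22), ion channels and conduction (26), heat shock and protein folding (25), endoplasmic reticulum stress (24), immediate early genes (20), MHC class II and interferon genes (26), insulin, growth and atrophy signalling (29), erythroid genes (7) and stress markers (15). Heat shock genes had 22 of 25 negative differences and a median of -0.12. The MHC class II and interferon genes had 21 of 26 negative and a median of -0.11, against -0.28 in sedentary hearts. The members with the smallest p included the small heat shock protein gene Hspb6 (-0.22, adjusted p 0.0834), the titin cap gene Tcap (-0.24, adjusted p 0.0952) and the L-type calcium channel gene Cacna1c (0.17, adjusted p 0.0879). Mybphl, a myosin-binding protein of atrial muscle, had a difference of 1.02 that was not called (adjusted p 0.208), and 10 of 11 atrial markers were positive with a median of 0.72.

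**Figure D5:**
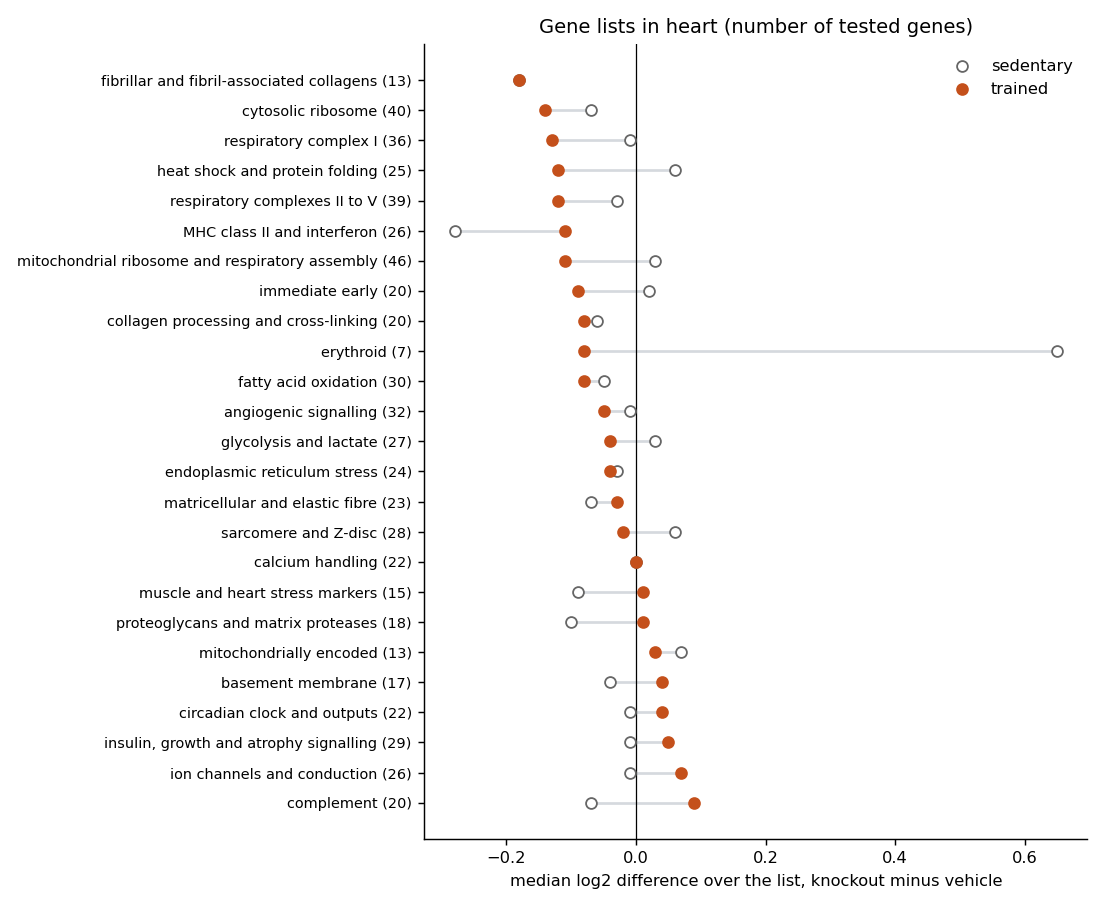
Median log2 difference (knockout minus vehicle) of 25 gene lists in trained and sedentary hearts, with the number of tested genes in brackets. The collagen list has the same median of -0.18 in both, while the median of complex I is -0.13 in trained and -0.01 in sedentary hearts.

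The same contrast in sedentary hearts, which shares no library with the trained one, gave 0 called genes of 13455 (0%), with 880 at an unadjusted p under 0.05. A difference in the number of calls does not show that the effects differ, so the difference between the knockout effects was tested directly. In that test limma called 0 genes (0%), with 1085 at an unadjusted p under 0.05 and a smallest adjusted p of 0.524. Sparc had a knockout difference of -0.46 in trained and -0.17 in sedentary hearts, and the difference between these was -0.29 with a 95% interval from -0.50 to -0.08 and an adjusted p of 0.569. For Pgk1 the values were -0.31 and -0.02, with a difference of -0.29 (interval -0.42 to -0.16, adjusted p 0.524). C7 had 0.64 and -0.02, with a difference of 0.66 (interval 0.26 to 1.06, adjusted p 0.524). Col15a1 had -0.27 in both, with a difference of 0.00 (interval -0.17 to 0.17). Sparc, Pgk1, C7 and Col15a1 were chosen with their trained differences known, and those differences are part of this test. The intervals are not adjusted for that choice, so an interval that leaves out 0 does not show that the effects differ. Of the 48 genes called lower in trained hearts 42 had negative differences in sedentary hearts, with a median of -0.05, and of the 22 called higher 13 had positive ones, with a median of 0.02.

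The group means show where the trained hearts stood against the sedentary ones. Sparc averaged 178 and 158 in sedentary vehicle and knockout hearts, against 228 and 165 when trained. Pgk1 averaged 92.8 and 91.4 when sedentary, against 108 and 86.5 when trained. C7 averaged 17.2 and 16.8 when sedentary, against 10.9 and 17.2. In each of these genes the trained vehicle mean stood apart from the other 3 group means. Trained minus sedentary, Sparc had 0.35 in vehicle and 0.06 in knockout hearts, Pgk1 0.21 and -0.08, Col4a2 0.22 and -0.05, Aplnr 0.42 and 0.01, Ndufs4 0.26 and 0.05, and C7 -0.62 and 0.04. These training values share the trained libraries with the knockout comparison, so they are the same levels read another way and add no separate evidence. Not all called genes followed this pattern. Col15a1 averaged 37.6 and 31 in vehicle and knockout hearts when sedentary, and 38.6 and 31.7 when trained. Dmxl2 averaged 27.9 and 33.3 when sedentary, and 24.9 and 32 when trained. Ntan1 had a knockout difference of -0.27 in sedentary and -0.43 in trained hearts. The called genes that followed the pattern were not counted.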

How the data were processed

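Total heart RNA was prepared by Trizol and RNeasy kit and sequenced from Illumina libraries, per the labels' protocols. The submitters' processing notes name STAR 2.7.8a, Partek, mm10 and GRCm39 without their roles. The heart values are labelled CPM, which their sums of 16424911 to 18537114 contradict. They were used as a signal that the authors deposited: reads estimated for each gene, scaled by a single factor in each library. Of values between 0.05 and 100, 80.9 to 82.7% were whole multiples of a per-library step within 0.02 reads. As these are not nearly all, no count test was run. Rows without a gene name, up to 0.00794% of the signal, were left out.

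Values were divided by 17.4647. limma 3.58.1 (R 4.3.3) with a trend was fitted to log2(value + 1) of 13455 genes with a mean of at least 1, with 4 group means and 16 residual degrees of freedom. The fit was also run on simulated data. Transcript lengths (GENCODE vM21) covered 97.9% of tested genes. No pair of libraries of a group agreed within sampling noise (40 pairs, smallest chi-square per degree of freedom 4.93).

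The comparison, its members and the 25 pathway and 18 marker lists were chosen with earlier results of these data known. Genes named are the 12 largest falls, 10 largest rises and 8 smallest p among called genes with a mean of at least 2, up to 6 called members per list, the smallest p of lists with no call, the clock list, 8 genes named in an earlier account, and the 4 smallest p of the sedentary and the difference tests. Some genes that this rule selects are left out here. Other list members and Fbxl22 were chosen as examples after their values were seen. Alternatives changed 1 choice at a time: pseudocount, filter, scaling, replicate block, marker or length covariates, length centring, groups fitted and libraries left out. The fits without 4 libraries, with Ucp1 and with the length index as covariates were chosen after the data were seen.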

Additional observations from a re-analysis of the deposited data

Results flagged for a closer look

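In each trained group of 5 hearts, 1 library can lie far from the other 4: its gap to the nearest of them then makes up more than 0.71 of the range of the group. This was so for 18 of 194 groups of values examined. The limit is one that about 1 in 20 groups of independent, normally distributed values would pass. Some of these levels are skewed and some share genes, such as Ucp1 and the brown fat sum. The count of 18 therefore cannot be read as an excess.

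Several of these values are marker transcripts. In trained vehicle hearts, replicate 1 had a Ucp1 level of 31.2, a brown fat marker sum of 89.9 and an epicardial and mesothelial marker sum of 35.1, each the highest of its group, and replicate 5 had a hepatocyte marker sum of 213. In trained knockout hearts, replicate 5 had a Ucp1 level of 48.8, a B lymphocyte marker sum of 101 and a lung epithelium marker sum of 27.7. Knockout replicate 3 had a nerve and Schwann cell marker sum of 45.4. Vehicle replicate 4 had a T and NK lymphocyte marker sum of 5, the highest at a very low level, and vehicle replicate 2 the lowest fibroblast marker sum, 1396.

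Among named genes called in the comparison, knockout replicate 1 was high in Itgb1bp2 at 92.8, replicate 2 low in Abat at 27.6, and replicate 5 high in Rps10 at 19.5 and in Spock2 at 24.3. Among uncalled genes, knockout replicate 3 was high in Manf, an endoplasmic reticulum stress protein, at 19.3, knockout replicate 2 low in the nuclear receptor gene Rorb at 0.933, and vehicle replicate 3 high in the sodium channel subunit gene Scn4b at 113. Arntl was high in vehicle replicate 4 at 1.33, the library that raised the mean of that group. The causes were not tested.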

How the results depend on the processing

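The count of 70 genes called in trained hearts stayed within 1.5 times with a pseudocount of 0.1 (66), a mean of at least 5 (86) and median-of-ratios scaling (70). The count also stayed within this limit with the atrial sum (52) or Ucp1 (72) as a covariate, and without the 4 libraries richest in Ucp1 or hepatocyte transcripts (88). It was 14 with no filter on low genes, 12 with each library divided by its sum, 145 with the brown fat sum as a covariate, 38 when centred within length bins, and 0 with the 2 groups fitted alone or with the length index as a covariate. Leaving out 1 heart gave 4 to 270. In sedentary hearts the count of 0 became 6 with the 2 groups alone, 4 without the 4 libraries, and 0 to 3 without 1 heart. For the difference between the knockout effects it became 1 without the 4 libraries and otherwise stayed at 0.

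Replicate numbers shared by the groups are not said to pair animals, and the correlation of same-numbered trained hearts was -0.07 to 0.10. With a replicate block 85 genes were called, 61 of them shared, and 0 in sedentary hearts and for the difference.

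Among named genes, directions reversed only in uncalled ones, in 35 pairs of a gene and a fit. With the length index as a covariate Clock had -0.03, Cry2 0.00, Npas2 0.13, Nr1d2 -0.08, Per1 -0.02, Per3 -0.05, Rora -0.04 and Tef -0.02. With the atrial sum Cry2, Hba-a1, Hba-a2 and Tef had 0.00, Nr1d2 -0.01 and Per3 -0.03. Centred by length Hba-a1 and Hba-a2 had 0.01, Nr1d2 and Rora -0.01 and Tef 0.00. Without 1 heart the values ranged from -0.01 to 0.06 for Cry2, -0.22 to 0.02 for Hba-a1, -0.23 to 0.01 for Hba-a2, -0.12 to 0.03 for Npas2, -0.02 to 0.05 for Nr1d2 and -0.04 to 0.13 for Per1. The cause was not tested.

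No library met the limits on marker sums written for leaving libraries out, so those fits were not run. With 5 libraries per group, levels near 1 rest on few reads, as for Arntl.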

Other observations

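Among globin genes of red blood cells, Hba-a1 stood at 0.71 when sedentary and -0.09 when trained, and Hba-a2 at 0.69 and -0.09. The difference between these effects was -0.79 for Hba-a1 (limma unadjusted p 0.000438), not called after adjustment. Their levels in the trained hearts overlapped, at 552 to 823 with vehicle and 465 to 903 with the knockout for Hba-a1. The erythroid marker sum was 1453 to 2014 in sedentary vehicle and 2352 to 3297 in sedentary knockout hearts, against 2255 to 3556 and 1967 to 3912 when trained. Reads of Hba-a1 and Hba-a2 cannot be told apart with certainty, since the genes are nearly identical.

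Genes with the smallest p for the difference between the knockout effects, none of them called, included Mrps17 at -0.30 (unadjusted p 0.000153), Pgk1 at -0.29 (0.000156), Cox19, a copper chaperone gene of cytochrome c oxidase assembly, at -0.36 (0.000176), and Rer1, which returns proteins to the endoplasmic reticulum, at -0.24 (0.000253). In sedentary hearts H2-Ab1, an MHC class II chain, stood at -0.62, with an adjusted p of 0.175. In trained hearts it stood at -0.38.

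Fndc5, whose product is cleaved to irisin, was among the called genes that the rule for naming left out, and is given here after its value was seen. It fell by 0.18 (SE 0.04, limma adjusted p 0.0414), from 394 to 437 in trained vehicle hearts to 356 to 393 in trained knockout hearts, without overlap.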
